A study of Mus musculus with 24 samples.

Results

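The cytosolic ribosomal protein genes were followed through caerulein pancreatitis in the mouse pancreas. They were chosen by symbol alone: every gene row named Rpl or Rps with a number (with or without the suffixes A, L or X), together with Rplp0, Rplp1, Rplp2 and Rpsa, pseudogene rows left out. This gave 81 of the 36806 genes in the expression table, 46 of the large (60S) subunit, 32 of the small (40S) subunit and 3 of the stalk. Of these, 78 had a value above 0 in all 24 libraries and were tested. The other 3, Rpl10l, Rpl3l and Rpl39l, are described below and did not pass the filter on low values, which asked for at least 1 FPKM in at least 3 libraries.

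Poly(A) RNA of whole pancreas from C57BL mice was sequenced. FPKM values (fragments per length of transcript and size of library) are per length, so levels of genes can be set side by side roughly. Reads shared with near copies or pseudogenes could be split either way, which makes such levels uncertain. Animals carried Nr5a2 +/- (HET) or Nr5a2 +/+ (WT). Nr5a2 encodes a nuclear receptor of pancreatic acinar cells. The labels give the genotype but not how the allele was made. Each genotype was given saline, or 7 hourly intraperitoneal injections of caerulein at 50 ug/kg, with tissue taken 8, 24 or 48 h from the start of the caerulein series. Caerulein is a cholecystokinin analogue that overstimulates acinar cells. This made 8 groups of 3 animals: HET saline and WT saline, HET and WT at 8 h, HET and WT at 24 h, HET and WT at 48 h.

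Each ribosomal protein is present in a single copy per subunit, apart from the stalk proteins Rplp1 and Rplp2, and most are needed to assemble it, so their messages are made in matched amounts in most tissues. Acinar cells carry a dense rough endoplasmic reticulum and make more protein than almost any other cell. The mRNAs of ribosomal proteins begin with a run of pyrimidines at the 5' end (the 5' TOP), through which mTORC1 and Larp1 set their translation and stability. Assembly takes place in the nucleolus with a separate set of factors, the ribosome biogenesis genes.

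Libraries differed in ways that touch the family. The first HET saline library had an FPKM sum of 1400108, against 745601 to 1007572 in the other 5 saline libraries, and held the highest value of 77 of the 78 genes. The third HET 48 h library held the lowest value of 68 of the 78. Digestive enzyme and Reg genes took 4.30% of the FPKM sum in that library, against 19.8% and 32.8% in the other HET 48 h libraries and 32.9% to 45.8% in WT at 48 h. In saline libraries the same genes took 46.4% to 56.9%, which fits the labelled tissue, although Amy2a5, Amy2b and Ctrb1 were listed at 0 in every library. Others, such as Cpa1, Cpb1, Cel and Pnlip, were listed at 0 in all saline libraries but not in all groups. Of 29 enzyme genes, 17 were above 0 in any HET saline library and 16 in WT saline, against 26 in HET and 23 in WT at 48 h. The shares therefore cover different genes in different groups. Nr5a2 stood at 9.09, 8.01 and 8.79 FPKM in HET saline, against 12.6, 9.26 and 10.2 FPKM in WT saline, and the groups overlapped in range only at 24 and 48 h. The saline and 24 h libraries were prepared by an earlier guide with 10 PCR cycles and the 8 h and 48 h libraries by a later version with 8 cycles; the third WT saline library is named in neither list. Comparisons of 8 h or 48 h with saline therefore cannot be told apart from the change of guide, whereas HET against WT at 8, 24 and 48 h, 24 h against saline in HET and 48 h against 8 h lie within 1 guide. The same is not known of the comparisons that use the WT saline group. The depth of the libraries is unknown, since no counts were given. Whole tissue was sequenced, so fewer cells of a type and less RNA per cell cannot be told apart.

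The family was strongly expressed in every group. Averaged over all 24 libraries, the tested genes had a median level of 268 FPKM, 380 FPKM for the 40S genes and 238 FPKM for the 60S genes. Rpl13a, a 60S protein also known from the interferon-gamma GAIT complex, was highest at 1781 FPKM, followed by Rpl32 at 1214 FPKM and the stalk gene Rplp1 at 814 FPKM. The lowest tested genes were Rpl29 at 49.7 FPKM, Rpl15 at 59.8 FPKM and Rpl31 at 96.2 FPKM, so that levels spanned 35.8-fold. Of each library's FPKM sum, the family took 3.83% to 4.66% in the saline libraries and 4.73% to 5.45% at 8 h. At 24 h its share was 6.75% to 8.30% in HET libraries and 4.52% to 5.55% in WT libraries. At 48 h its share was 6.06% to 7.06% in HET libraries and 4.66% to 6.30% in WT libraries. The summed FPKM of the family, by contrast, was lower in every caerulein library (13172 to 32676) than in every saline library (33106 to 60212), as was the FPKM sum of all genes (217205 to 688666, against 745601 to 1400108).

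The genes moved as a block. The SD of log2(FPKM + 1) over the 24 libraries had a median of 0.50 over the genes, and of 0.20 once each library's median ribosomal protein gene was subtracted. The same was not done for other gene sets, so the drop is not shown to be particular to this family. Rps13, a 40S protein, stayed closest to the block with an SD of 0.064, and its FPKM was 0.65 to 0.76 times the library's median ribosomal protein gene in every library. Rpl17 (0.096), Rps23 (0.11), Rps20 (0.11) and Rpl19 (0.11) followed. Rpl36 (0.40), Rpl29 (0.39), Rpl21 (0.37) and Rpl22 (0.34), all of the 60S subunit, were among the 5 most variable.

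Transcription starts of the family were compared with those of all genes to show the sequence shared at the 5' end. RefSeq promoter windows (build GRCm38.p6, from 250 bases before to 50 after each listed start) matched 61 of the 81 genes by symbol. On the gene's own strand, a C followed by at least 4 C or T, beginning no more than 5 bases from the start on either side, was found in 28 of 61 genes (45.9%), against 21.2% of 27025 genes. On either strand, CCGGAAG, the core bound by ETS factors such as Gabpa, was found in 25 (41.0%, against 9.93% of all genes). ATGGCG, the core bound by Yy1, was found in 18 (29.5%, against 10.2%). GGGCGG, the GC box, was found in 37 (60.7%, against 38.2%), and TATAAA in 6 (9.84%, against 15.7%). A match is a description of letters and not of a site in use. Below are 7 starts of genes whose values led a comparison, each 40 bases before to 20 after the start in GRCm38.p6, with the pyrimidine run in capitals where 1 was found.
Rplp2 at chr7:141447611-141447670, plus strand: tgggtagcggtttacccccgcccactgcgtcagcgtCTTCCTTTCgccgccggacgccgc
Rpl38 at chr11:114668540-114668599, plus strand: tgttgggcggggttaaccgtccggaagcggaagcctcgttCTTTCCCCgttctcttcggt
Rpl28 at chr7:4792925-4792984, plus strand: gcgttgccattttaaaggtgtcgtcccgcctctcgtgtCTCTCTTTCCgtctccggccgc
Rps27 at chr3:90213629-90213688, minus strand: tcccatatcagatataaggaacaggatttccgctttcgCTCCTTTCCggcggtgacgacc
Rpl26 at chr11:68901526-68901585, plus strand: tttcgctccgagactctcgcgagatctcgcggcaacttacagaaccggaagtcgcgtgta
Rpl22 at chr4:152324396-152324455, plus strand: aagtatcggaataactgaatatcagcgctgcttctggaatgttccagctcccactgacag
Rpl27 at chr11:101442205-101442264, plus strand: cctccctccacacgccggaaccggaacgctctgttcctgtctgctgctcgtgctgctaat
The runs of Rplp2, Rpl28, Rps27 and Rpl38 begin between 4 bases before the start and the start itself. The windows of Rpl26, Rpl22 and Rpl27 hold no such run at the listed start, and Rpl22 has 2 starts in the table, of which the first is printed. Of the 7 windows, those of Rpl38 and Rpl26 hold CCGGAAG.

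As a block, the family was lower at each time after caerulein than after saline in the deposited FPKM, although its median difference was above 0 at 24 h in both genotypes and at 48 h in WT when libraries were scaled to the whole FPKM total without enzyme and Reg genes. The geometric mean of the 78 genes was 619, 335 and 350 FPKM in the 3 HET saline animals, then 270, 258 and 264 FPKM at 8 h, 239, 192 and 177 FPKM at 24 h, and 208, 193 and 140 FPKM at 48 h. In WT it was 381, 405 and 385 FPKM after saline, 252, 297 and 336 FPKM at 8 h, 201, 194 and 251 FPKM at 24 h, and 338, 225 and 291 FPKM at 48 h. No library of any caerulein group of HET reached the lowest HET saline library, and the WT 48 h libraries lay between those at 24 h and those after saline, with overlap at 24 h. The mean over animals was highest in HET saline for 71 of the 78 genes and lowest in HET at 48 h for 58. The only gene highest in a caerulein group was Rpl22, in WT at 48 h. These rankings lean on single libraries. The HET saline library at 619 FPKM held the highest value of 77 genes. The other HET saline libraries, at 335 and 350 FPKM, lay below every WT saline library. The HET 48 h library at 140 FPKM held the lowest value of 68 genes.

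**Figure D1:**
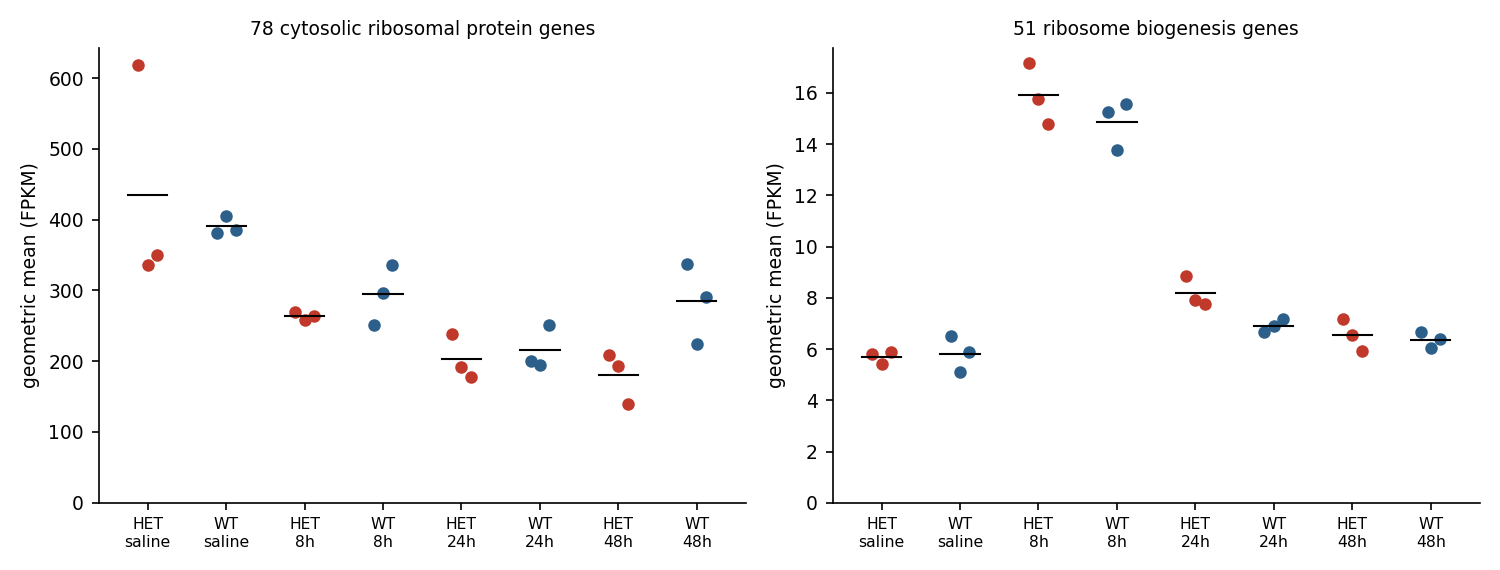
Geometric mean FPKM of the 78 ribosomal protein genes (left) and of 51 ribosome biogenesis genes (right) in each of 24 libraries, HET in red and WT in blue, with the group mean as a line; both axes are linear and start at 0. The ribosomal protein genes averaged 180 FPKM in HET and 284 FPKM in WT at 48 h, against 435 FPKM in HET and 391 FPKM in WT after saline, whereas the biogenesis genes averaged 15.9 FPKM in HET and 14.9 FPKM in WT at 8 h, against 5.70 FPKM in HET and 5.83 FPKM in WT after saline. After dividing by the whole FPKM total without enzyme and Reg genes, the ribosomal protein medians of 24 h against saline, of 48 h against saline in WT and of 48 h against 8 h in both genotypes were above 0.

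Differences are on the log2(FPKM + 1) scale and were tested with limma over all genes, with Benjamini-Hochberg adjustment over all genes tested and a threshold of 0.05 on the adjusted p. The 3 comparisons with saline in each genotype share the same saline animals, so their counts are given side by side only.

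At 8 h 56 of 78 genes fell in HET and none rose (median difference -0.66, and -0.76 to -0.52 over the scalings), and 16 fell in WT and none rose (median -0.40, and -0.55 to -0.40 over the scalings). Among all genes 24.5% were called lower in HET and 22.8% in WT, so the share in WT (20.5% of the family) was near that of all genes. Rplp2, Rps25, Rps26 and Rps27l were among the 5 largest falls in both genotypes. Rplp2, a stalk protein that takes part in recruiting elongation factors, had 357, 315 and 329 FPKM in HET at 8 h, against 1100, 610 and 716 FPKM in HET saline. In WT it had 319, 345 and 383 FPKM at 8 h, against 569, 682 and 633 FPKM after saline. In both genotypes all caerulein values lay below all saline values, and the difference was -1.23 (SE 0.19, adjusted p = 1.65e-05 by limma) in HET and -0.85 (SE 0.19, adjusted p = 0.000872) in WT. Rps26, which lines the mRNA exit channel, had 289, 269 and 276 FPKM in HET at 8 h, against 1080, 441 and 415 FPKM in HET saline. In WT it had 264, 294 and 382 FPKM at 8 h, against 708, 527 and 570 FPKM after saline, a difference of -0.95 (SE 0.27, adjusted p = 0.00631). Rps25, a 40S head protein used by viral internal ribosome entry sites, fell by 1.10 in HET (adjusted p = 0.000383) and by 0.83 in WT (adjusted p = 0.00457). Rpl38, which mice need for the patterning of the axial skeleton, was the other leading gene in HET and Rps28 in WT. All 16 genes called in WT were also called in HET, where they made up 28.6% of the calls. Without the first HET saline library 26 genes were called in HET. In WT 6 were called without the first 8 h library and 10 without the second 8 h or the second saline library.

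Ribosome biogenesis genes went the other way at 8 h. Of 51 measured, 47 rose and 1 fell in HET (median difference 1.28), and 44 rose and 1 fell in WT (median 1.23), beside 30.7% and 28.2% of all genes called higher. The medians were 1.07 to 1.37 in both genotypes under each scaling. Nop58, a core protein of box C/D snoRNPs, averaged 38.9 ± 1.65 FPKM in HET at 8 h, against 4.39 ± 0.07 FPKM in HET saline (SD, n = 3 each; adjusted p = 5.09e-11 by limma). Heatr1, which acts in rRNA transcription and processing, averaged 9.98 ± 0.99 FPKM in WT at 8 h, against 1.2 ± 0.22 FPKM in WT saline (adjusted p = 2.54e-12). The DEAD-box helicase Ddx21 averaged 29.7 ± 2.46 FPKM in WT at 8 h, against 6.01 ± 0.27 FPKM (adjusted p = 1.09e-11). From 8 h to 48 h, 44 of 51 fell in HET, and 41 fell and 1 rose in WT, beside 28.6% and 27.4% of all genes called lower. The median change ran from -1.17 to -0.30 in HET and from -1.23 to -0.65 in WT over the scalings. At 48 h the median against saline was 0.19 in HET and 0.13 in WT in the deposited FPKM, but 1.15 in HET and 0.58 in WT relative to the whole total without enzyme and Reg genes. The transcript of Myc, which drives both gene sets in many cells, had 28.5, 21.4 and 27.2 FPKM in HET at 8 h and 25.8, 7.73 and 19.8 FPKM in HET saline, which overlap.

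At 24 h, which lies within 1 preparation guide in HET, the family was lower in both genotypes in the deposited FPKM, but not relative to the whole FPKM total without enzyme and Reg genes, where its median difference was 0.07 in HET and 0.05 in WT. Relative to the protein-coding total without those genes it was -0.57 in HET and -0.49 in WT. Rows with no gene in the reference held 10.47% to 38.05% of a library's FPKM sum. They enter the whole total but not the protein-coding total. In HET 71 of 78 genes fell (median difference -1.08, a fold of 0.472), beside 19.8% of all genes called lower and 23.9% higher, and in WT 59 fell (median -0.87, a fold of 0.549), beside 18.7% lower and 20.5% higher; none rose. All values at 24 h lay below all saline values for 66 genes in HET and 68 in WT, against 21.6% and 21.3% of all genes. The 2 lists shared 58 genes, 81.7% of the HET calls and 98.3% of the WT calls. By subunit, 38 of 43 large-subunit and 30 of 32 small-subunit genes fell in HET, and 33 and 23 in WT, with all 3 stalk genes in both. The scaling to the whole total put the median of all genes at 0.88 in HET and 0.68 in WT. Relative to the median of all genes, the family stood at -1.16 to -0.81 in HET and -0.91 to -0.64 in WT under every scaling tried.

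Rpl29, a 60S protein that mice can live without, had 21.8, 21.5 and 32.0 FPKM in WT at 24 h, against 84.2, 91.4 and 82.0 FPKM in WT saline. Its difference was -1.76 (SE 0.20, adjusted p = 2.82e-06 by limma), the furthest of the family in WT. In HET it had 23.8, 26.9 and 25.5 FPKM at 24 h, against 97.6, 58.1 and 62.7 FPKM. Rpl28, a 60S protein, had 133, 119 and 123 FPKM in WT at 24 h, against 362, 357 and 358 FPKM in WT saline. Both genes stood apart from saline in every animal. In HET, Rps15, Rps21, Rplp1 and Rps29 were among the 5 largest falls. Rplp1 had 570, 478 and 421 FPKM at 24 h, against 2010, 1190 and 1160 FPKM in HET saline (difference -1.53, SE 0.22), and no animal at 24 h reached saline. In WT, Rpl36 and Rpl6 were also among the 5 largest falls.

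At 24 h 7 genes were not called in HET and 19 in WT. Rpl27, Rpl9, Rps16, Rpl35a, Rpl22 and Rps27l missed the threshold in both genotypes. Rpl27 had 130, 119 and 109 FPKM in HET at 24 h, against 223, 109 and 115 FPKM in HET saline. In WT it had 117, 93.9 and 160 FPKM at 24 h, against 132, 123 and 132 FPKM after saline. In both genotypes its 24 h and saline ranges overlapped. Rps27l, a near copy of Rps27 that p53 switches on, had 352, 281 and 258 FPKM in HET at 24 h, against 571, 323 and 334 FPKM in HET saline, although it had been 192, 170 and 214 FPKM at 8 h.

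At 48 h against saline, 76 of 78 genes fell in HET (median -1.21, a fold of 0.431), beside 20.0% of all genes called lower and 24.2% higher, and 21 fell in WT (median -0.48, a fold of 0.717), beside 13.5% lower and 11.8% higher; none rose. In WT this direction did not hold relative to the whole total without enzyme and Reg genes, where the median was 0.13. All 21 WT calls were among the HET calls, of which they made up 27.6%. In HET the median under that scaling was -0.09. Relative to the median of all genes it was -1.30 to -0.97 in HET and -0.50 to -0.31 in WT over the scalings. Rpl32, a 60S protein, had 669, 568 and 381 FPKM in HET at 48 h, against 3240, 1620 and 1640 FPKM in HET saline. In WT it had 1290, 746 and 1010 FPKM at 48 h, against 1800, 1970 and 1980 FPKM after saline. No value at 48 h reached saline in either genotype, and the difference was -1.96 (SE 0.28, adjusted p = 1.52e-05 by limma) in HET and -0.95 (SE 0.28, adjusted p = 0.0162) in WT. Rpl10, which joins the 60S subunit last and lies at its P site, had 251, 217 and 164 FPKM in HET at 48 h, against 868, 616 and 606 FPKM in HET saline (difference -1.72, adjusted p = 1.43e-06). In WT it had 420, 297 and 372 FPKM at 48 h, against 544, 844 and 645 FPKM after saline (difference -0.89, adjusted p = 0.00282). Rplp1 fell by 1.8 in HET and by 0.86 in WT. Rpl38 and Rps28 in HET, and Rps28 and Rps25 in WT, completed the leading genes. The 2 genes that missed the threshold in HET were Rpl22 (difference -0.36, adjusted p = 0.194) and Rps27 (difference -0.49, adjusted p = 0.109). In WT 26 genes were called without the first 48 h library, 4 without the second and 10 without the third, and 11, 7 and 12 without the first, the second and the third saline library.

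From 8 h to 48 h, in libraries of 1 preparation guide, 43 of 78 genes fell further in HET in the deposited FPKM (median -0.57, but 0.10 relative to the protein-coding total and 0.41 relative to the whole total, both without enzyme and Reg genes), beside 28.6% of all genes called lower and 23.4% higher, and all values at 48 h lay below all values at 8 h for 68 genes, against 35.3% of all genes. In WT none fell and 1 rose (median -0.07, and 0.12 to 0.58 under the other 3 scalings), beside 27.4% of all genes called lower and 22.5% called higher. The gene that rose was Rpl22, with 411, 316 and 361 FPKM in WT at 48 h, against 201, 217 and 236 FPKM at 8 h (difference 0.73, SE 0.22, adjusted p = 0.00949 by limma). In HET the largest falls were those of Rpl21, Rpl32, Rpl26, Rpl13 and Rplp1. Rpl21 had 62.1, 56.0 and 43.1 FPKM in HET at 48 h, against 127, 133 and 129 FPKM at 8 h (difference -1.27, adjusted p = 0.00375), and 113, 70.6 and 93.5 FPKM in WT at 48 h, against 114, 138 and 152 FPKM at 8 h (difference -0.55, adjusted p = 0.184). The test of the difference between the genotypes called none of the 78 (limma; 8 at an unadjusted p under 0.05), although all 78 estimates were below 0 (median -0.50); 0.568% of all genes were called lower and 0.156% higher in that test. The HET count was 14 without the third HET 48 h library and 27 without the first HET 8 h library. Relative to the median of all genes the family stood at -0.55 to -0.27 in HET and -0.09 to 0.12 in WT over the scalings.

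HET was set against WT at each time to ask whether 1 copy of Nr5a2 less went with another level of the family. After saline, at 8 h and at 24 h no gene passed the test, and none had an unadjusted p under 0.05 (limma). The median difference was 0.10 after saline, -0.15 at 8 h and -0.10 at 24 h. At 8 h all 78 differences were below 0. The geometric means of single libraries overlapped between the genotypes at each of these times. After saline they were 435 ± 160 FPKM in HET and 391 ± 12.9 FPKM in WT (SD, n = 3 each). The HET libraries there had 619, 335 and 350 FPKM, and the WT libraries 381, 405 and 385 FPKM. The higher HET mean after saline therefore rests on the library at 619 FPKM. At 8 h the geometric means were 264 ± 5.55 FPKM in HET and 295 ± 42.0 FPKM in WT, and at 24 h 203 ± 32.1 FPKM in HET and 215 ± 30.9 FPKM in WT. Under the whole total without enzyme and Reg genes the medians at 8 h and 24 h were 0.02 and 0.14. The test of whether the change from saline to 24 h differed between the genotypes called none either (none at an unadjusted p under 0.05; median -0.20, beside 1.24% of all genes lower and 1.07% higher). Between HET and WT 1.21% of all genes were called lower and 1.15% higher after saline, 0.0467% and 0.171% at 8 h, and 3.0% and 3.5% at 24 h.

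At 48 h the median of the family was lower in HET than in WT under each scaling, but no gene was called when libraries were scaled to the whole FPKM total without enzyme and Reg genes (median -0.15), and 52 fell when only protein-coding genes entered that total. In the deposited FPKM, 27 of 78 genes fell and none rose, beside 6.37% of all genes called lower and 5.85% higher, with a median difference of -0.66 (a fold of 0.635), and 75 had an unadjusted p under 0.05. All 3 HET values lay below all 3 WT values for 69 genes, against 16.3% of all genes. By subunit, 17 of 43 large-subunit, 9 of 32 small-subunit and 1 of 3 stalk genes fell. The geometric mean was 180 ± 35.9 FPKM in HET and 284 ± 56.8 FPKM in WT (SD, n = 3 each). The median was -0.67 to -0.15 over the scalings, and -0.69 to -0.57 relative to the median of all genes. The count rests on single animals: no gene was called without the third HET library, without the first WT library or without the third WT library, 7 were called without the second HET library, and 56 without the second WT library. When the spread was estimated from these 6 libraries only, none was called.

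Rpl26, a 60S protein at the exit of the peptide tunnel, differed most, with 145, 133 and 118 FPKM in HET and 325, 208 and 272 FPKM in WT at 48 h (difference -0.999, SE 0.25, adjusted p = 0.0148 by limma). Rpl32 had 669, 568 and 381 FPKM in HET and 1290, 746 and 1010 FPKM in WT (difference -0.91, SE 0.28, adjusted p = 0.0359). Rpl36al had 70.4, 69.5 and 45.9 FPKM in HET and 143, 87.7 and 117 FPKM in WT (difference -0.89, adjusted p = 0.0264). Rps14, the small-subunit protein whose loss underlies the 5q- syndrome in humans, had 523, 467 and 303 FPKM in HET and 931, 600 and 822 FPKM in WT (difference -0.88, adjusted p = 0.0487). Rps18 had 255, 238 and 167 FPKM in HET and 469, 291 and 410 FPKM in WT (difference -0.82, adjusted p = 0.0281). None of these calls, nor those that follow at 48 h, held under the whole-total scaling. In all 5 genes every HET animal lay below every WT animal, and the third HET animal was the lowest. Rpl10 (difference -0.79, adjusted p = 0.0134) also fell, as did Rps6, the S6 kinase substrate (-0.77, adjusted p = 0.0332), Rpl3, next to the peptidyl transferase centre (-0.75, adjusted p = 0.029), and Rplp1 (-0.73, adjusted p = 0.0337).

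Other well-known members gave differences of like sign that missed the threshold. The 2 proteins that join 5S rRNA and can bind Mdm2 had an adjusted p of 0.0749 (Rpl11) and 0.0641 (Rpl5). Rpl11 had 173, 171 and 120 FPKM in HET and 301, 204 and 244 FPKM in WT at 48 h. The stalk gene Rplp0 had an adjusted p of 0.0642 and Rplp2 of 0.0614. Among 40S proteins, Rpsa, also known as the laminin receptor, had 84.9, 82.1 and 58.7 FPKM in HET and 138, 89.1 and 113 FPKM in WT (adjusted p = 0.0627). Rps19, mutated in Diamond-Blackfan anaemia, had an adjusted p of 0.119 and Rps3, at the mRNA entry channel, of 0.132. A p above the threshold does not show that these genes were alike in the genotypes.

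Markers of some cell types moved with the same comparison, in which 6.37% of all genes were called lower and 5.85% higher. At 48 h, 20 of 23 digestive enzyme genes tested were lower in HET, and the summed level of the list was 4549 to 62820 FPKM in HET against 90320 to 216400 FPKM in WT. Of 13 macrophage genes 8 were higher in HET, with a sum of 1092 to 1948 FPKM in HET against 338 to 1163 FPKM in WT. Of 12 fibroblast and stellate cell genes 3 were higher, with a sum of 1042 to 1606 FPKM in HET against 724 to 1150 FPKM in WT. Of 8 cycling-cell genes 4 were higher, with a sum of 48.72 to 67.43 FPKM in HET against 25.05 to 40.09 FPKM in WT. Of 8 endothelial genes 2 were lower, as were 2 of 6 Reg genes, and 1 of 7 duct genes was higher. None was called among 7 neutrophil, 7 B cell, 6 T cell, 10 islet and 8 adipocyte genes tested. Markers also moved with the falls against saline. At 8 h, 10 of 17 digestive enzyme genes were lower in HET and 9 of 16 (1 higher) in WT, 9 of 12 fibroblast and stellate cell genes were lower in HET and none in WT, and 6 of 10 islet genes were lower in WT and 1 in HET. At 24 h, 15 of 17 enzyme genes were lower in HET and 14 of 16 in WT, with a sum of 38850 to 43190 FPKM in HET against 332600 to 622400 FPKM after saline, and of 94510 to 114700 FPKM in WT against 368900 to 491700 FPKM. Of the 29 enzyme genes listed, 17 were above 0 in any HET saline library and 16 in any WT saline library. At 24 h 23 were above 0 in any HET library and 22 in any WT library, and at 48 h 26 and 23. The enzyme sums therefore cover different genes in different groups. At 24 h islet genes were lower for 3 of 10 in HET and 10 of 10 in WT. Macrophage genes rose for 9 of 13 in HET, with a sum of 998 to 1530 FPKM against 320 to 673 FPKM after saline, and for 12 of 13 in WT, with a sum of 696 to 1195 FPKM against 102 to 248 FPKM. Fibroblast and stellate cell genes rose for 1 of 12 (2 fell) in HET and for 10 of 12 in WT, and cycling-cell genes for 6 of 8 in HET and 8 of 8 in WT. At 48 h against saline, all 17 enzyme genes tested were lower in HET and 12 of 16 in WT, macrophage genes rose for 12 of 13 in HET and 11 of 13 in WT, fibroblast and stellate cell genes for 9 of 12 (1 fell) in HET and 8 of 12 in WT, and cycling-cell genes for 6 of 8 in HET and 7 of 8 in WT. Endothelial genes fell for 7 of 8 and adipocyte genes for 7 of 8 in HET at 48 h, and none of either list in WT. Already after saline the macrophage sum was 320 to 673 FPKM in HET and 102 to 248 FPKM in WT, and the islet sum 977 to 1457 FPKM in HET and 2751 to 5238 FPKM in WT. The adipocyte sum there was 249.8 to 570.1 FPKM in HET and 43.17 to 116.3 FPKM in WT. For fibroblast and stellate cell genes it was 405 to 760 FPKM in HET and 228 to 311 FPKM in WT. For cycling-cell genes it was 23.17 to 29.62 FPKM in HET and 8.98 to 17.03 FPKM in WT. Changes against saline in these lists therefore start from unlike levels in the genotypes. The part of these cells in the ribosomal protein levels was not tested.

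**Figure D2:**
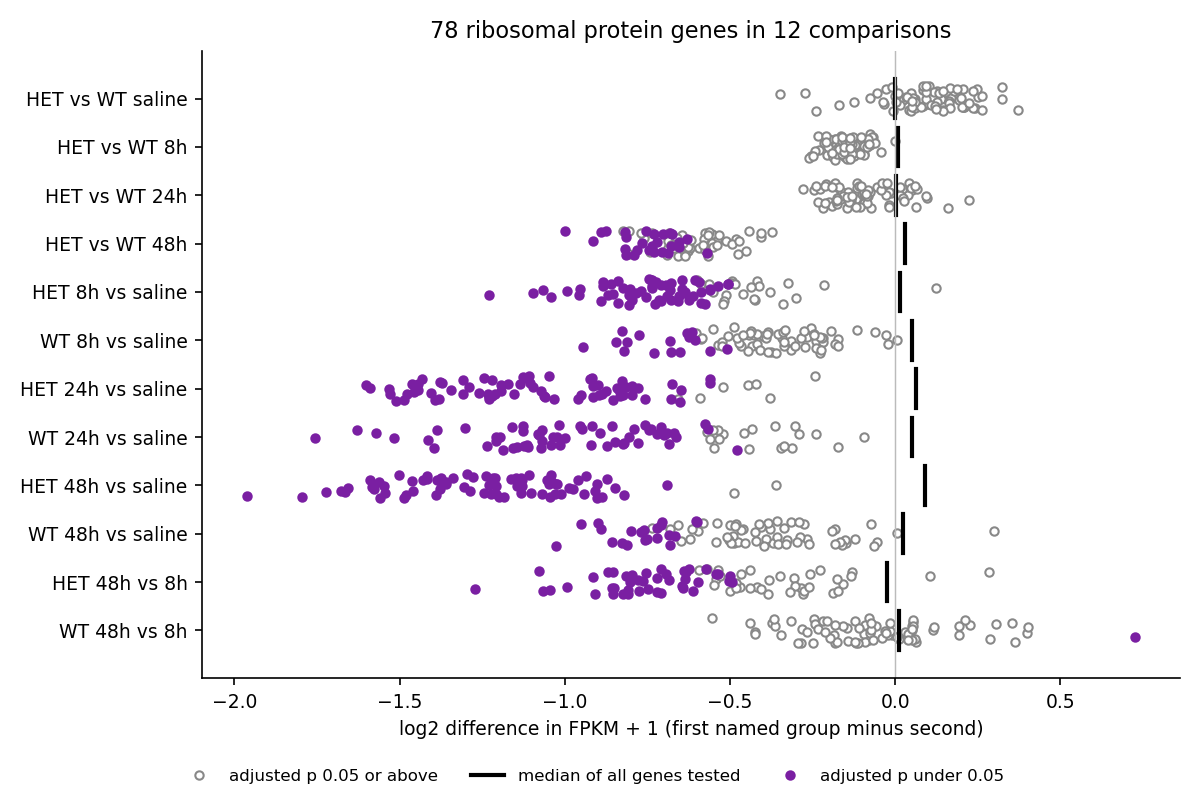
Log2 difference of each of the 78 genes in 12 comparisons, the first named group minus the second, in the deposited FPKM; filled points passed an adjusted p of 0.05 over all genes and the black bar is the median of all genes tested. Most points lie left of the bar in the comparisons with saline and at 48 h between HET and WT, where 27 are filled; after dividing by the whole total without enzyme and Reg genes the family's median is above 0 at 24 h against saline in both genotypes, at 48 h against saline in WT and at 48 h against 8 h in both genotypes, which also holds for 48 h against 8 h with the protein-coding total.

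**Figure D3:**
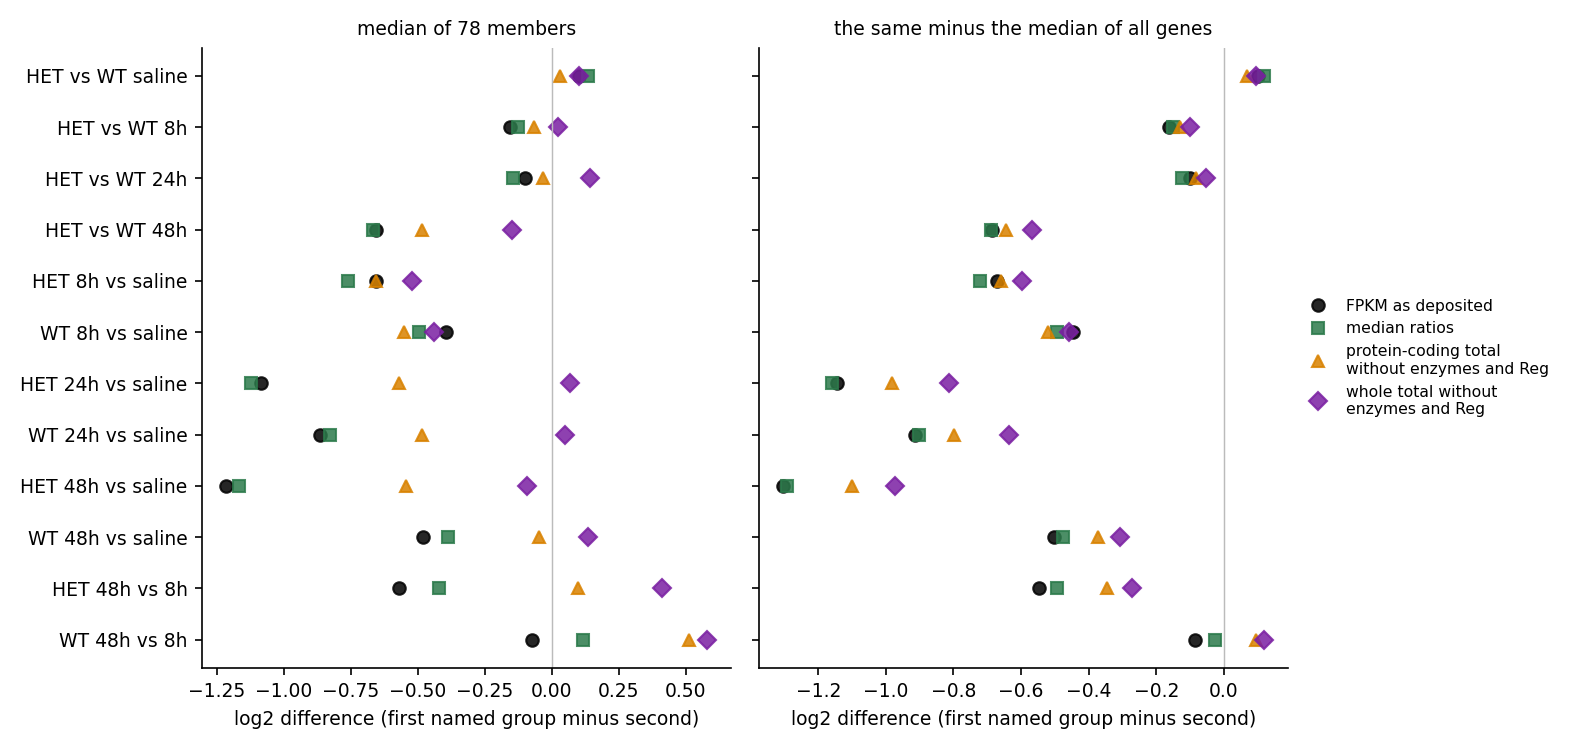
Median log2 difference of the 78 genes (left) and the same minus the median of all genes tested (right) in 12 comparisons under 4 ways of scaling the libraries. On the left the whole total without enzyme and Reg genes puts HET at 24 h against saline at 0.07, where the deposited FPKM give -1.08, and on the right the 24 h medians in HET lie between -1.16 and -0.81.

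Because the block moved with the scaling, each gene was also tested against the rest of the family, after subtracting from each library the median log2(FPKM + 1) of the 78 genes. This measure hardly depends on how a library is scaled. It says how the makeup of the ribosomal protein mRNA pool changed, and "higher" and "lower" in these tests are relative to the median ribosomal protein gene. Where the block fell, most other genes were higher relative to it (78.1% of all genes in HET at 48 h against saline), so the threshold is easier to pass there.

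Rpl22 was the gene that left the block furthest upward. It is a 60S protein that the ribosome can do without in mice, where it holds down its own paralog Rpl22l1. Its FPKM was 0.67 to 0.86 times the median ribosomal protein gene in all 12 saline and 8 h libraries and 0.92 to 1.00 times at 24 h. At 48 h it was 1.28, 1.32 and 1.58 times in HET and 1.25, 1.44 and 1.25 times in WT, above every library of the other times. Against 8 h the departure was 0.80 (SE 0.12, adjusted p = 1.91e-05 by limma) in HET and 0.73 (SE 0.12, adjusted p = 5.97e-05) in WT. Against saline it was 0.85 (adjusted p = 6.33e-06) in HET and 0.75 (adjusted p = 0.000298) in WT. These calls held without each library and under each alternative fitted to departures, which did not include the other scalings. Before this subtraction its level was 270, 247 and 212 FPKM in HET and 411, 316 and 361 FPKM in WT at 48 h, and 476, 261 and 241 FPKM in HET and 314, 266 and 301 FPKM in WT after saline.

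Rps27, a zinc-finger protein of the 40S subunit, also departed upward at 48 h. Its FPKM was 1.90, 2.14 and 2.16 times the median gene in HET and 1.51, 1.94 and 1.67 times in WT, against 1.11 to 1.48 times in all other libraries. The departure from 8 h was 0.63 (adjusted p = 0.000316) in HET and 0.40 (adjusted p = 0.014) in WT. Rps27l and Rplp2 were higher at 48 h than at 8 h in both genotypes as well. Of the calls of these genes from 8 h to 48 h, only that of Rps27 in HET held without each library. All 5 genes called higher from 8 h to 48 h in WT were also called in HET, where they made up 71.4% of 7. Among all genes 34.5% were called higher in HET and 11.7% in WT in this comparison.

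Rpl32 and Rplp1 departed downward in time. Rpl32 was 4.82 to 5.45 times the median gene after saline and 4.33 to 4.88 times at 8 h. At 24 h it was 3.51 to 3.78 times, and at 48 h 3.16, 3.05 and 2.83 times in HET and 3.94, 3.41 and 3.49 times in WT. At 48 h against saline the departure was -0.75 (adjusted p = 5.88e-06) in HET and -0.50 (adjusted p = 0.00316) in WT. Rplp1 was 2.93 to 3.69 times the median gene after saline and at 8 h, and 2.03 to 2.51 times at 24 and 48 h. Its departure from 8 h to 48 h was -0.47 (adjusted p = 0.0013) in HET and -0.43 (adjusted p = 0.00376) in WT. Rplp2, its partner in the stalk, was 1.22 to 1.41 times the median gene at 8 h, against 1.56 to 2.10 times after saline. In all, 16 genes were lower and 7 higher than the block from 8 h to 48 h in HET, and 8 were lower and 5 higher in WT, beside 10.9% and 18.6% of all genes lower. With the family mean subtracted, 15 were lower and 15 higher in HET and 7 and 7 in WT.

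The largest number of genes left the block at 24 h. In HET 35 genes were lower and 8 higher than the block, and in WT 34 and 9, beside 4.64% and 4.62% of all genes called lower and 61.4% and 44.6% higher. The split rests on the choice of centre: with the mean of the 78 genes subtracted in place of their median, 19 were lower and 16 higher in HET and 20 and 23 in WT. The lists shared 32 lower genes (91.4% of those in HET, 94.1% of those in WT) and 7 higher genes, namely Rpl22, Rpl24, Rpl27, Rpl9, Rps16, Rps27a and Rps27l. Rpl29 departed by -1.10, Rpl36 by -0.97 and Rpl28 by -0.86 in WT, and Rps15, Rps21 and Rplp1 were among the 4 furthest below the block in HET. Rpl27 departed by 0.62 in HET (adjusted p = 0.00033) and by 0.57 in WT (adjusted p = 0.00144), and its FPKM was 0.44 to 0.59 times the median gene at 24 h, against 0.31 to 0.37 times after saline. The row named Rpl24 carries the gene identifier that the reference gives to its neighbour Zbtb11, so its values are uncertain.

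At 8 h fewer genes left the block. In HET 4 were lower (Rplp2, Rps25, Rps27l and Rpl38) and 9 higher, beside 5.79% and 45.6% of all genes. In WT 6 were lower, led by Rps26, Rplp2, Rps25 and Rps28, and 6 higher, beside 7.58% and 33.0%. With the family mean subtracted the counts at 8 h were 6 lower and 7 higher in HET and 7 and 5 in WT. Rpl9 and Rpl10a were higher in both genotypes. Rpl21 was higher in HET, by 0.81 (SE 0.21, adjusted p = 0.0029). Its saline libraries were spread from 78.5 to 256 FPKM in HET and from 101 to 190 FPKM in WT. At 48 h against saline 14 genes were higher and 16 lower in HET, beside 78.1% and 3.13% of all genes, and 5 were higher and 6 lower in WT, beside 13.8% and 2.32%; with the family mean subtracted 14 were higher and 16 lower in HET and 10 and 7 in WT. Rpl22 and Rpl27 were called higher and Rpl32 and Rpl10 lower in both.

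Between HET and WT few genes left the block. No gene departed after saline, at 8 h or at 24 h (limma; 3, 0 and 1 genes at an unadjusted p under 0.05), beside 0.101% of all genes lower and 0.0233% higher after saline, 0.00778% in each direction at 8 h, and 0.614% lower and 0.428% higher at 24 h. At 48 h, 2 departed, both lower in HET, beside 1.58% of all genes lower and 38.6% higher. Rpl26 departed by -0.35 (SE 0.13, unadjusted p = 0.0166, adjusted p = 0.0446) and Rpl32 by -0.26 (SE 0.10, unadjusted p = 0.0199, adjusted p = 0.0498). Neither call held when the spread was estimated from the compared libraries only, and the count was 0 to 3 when single libraries were left out. The tests of whether the time course departed differently between the genotypes called none, with 1 gene at an unadjusted p under 0.05 both at 24 h against saline (0.0311% of all genes lower, 0.0389% higher) and at 48 h against 8 h (0.0389% and 0.0544%).

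**Figure D4:**
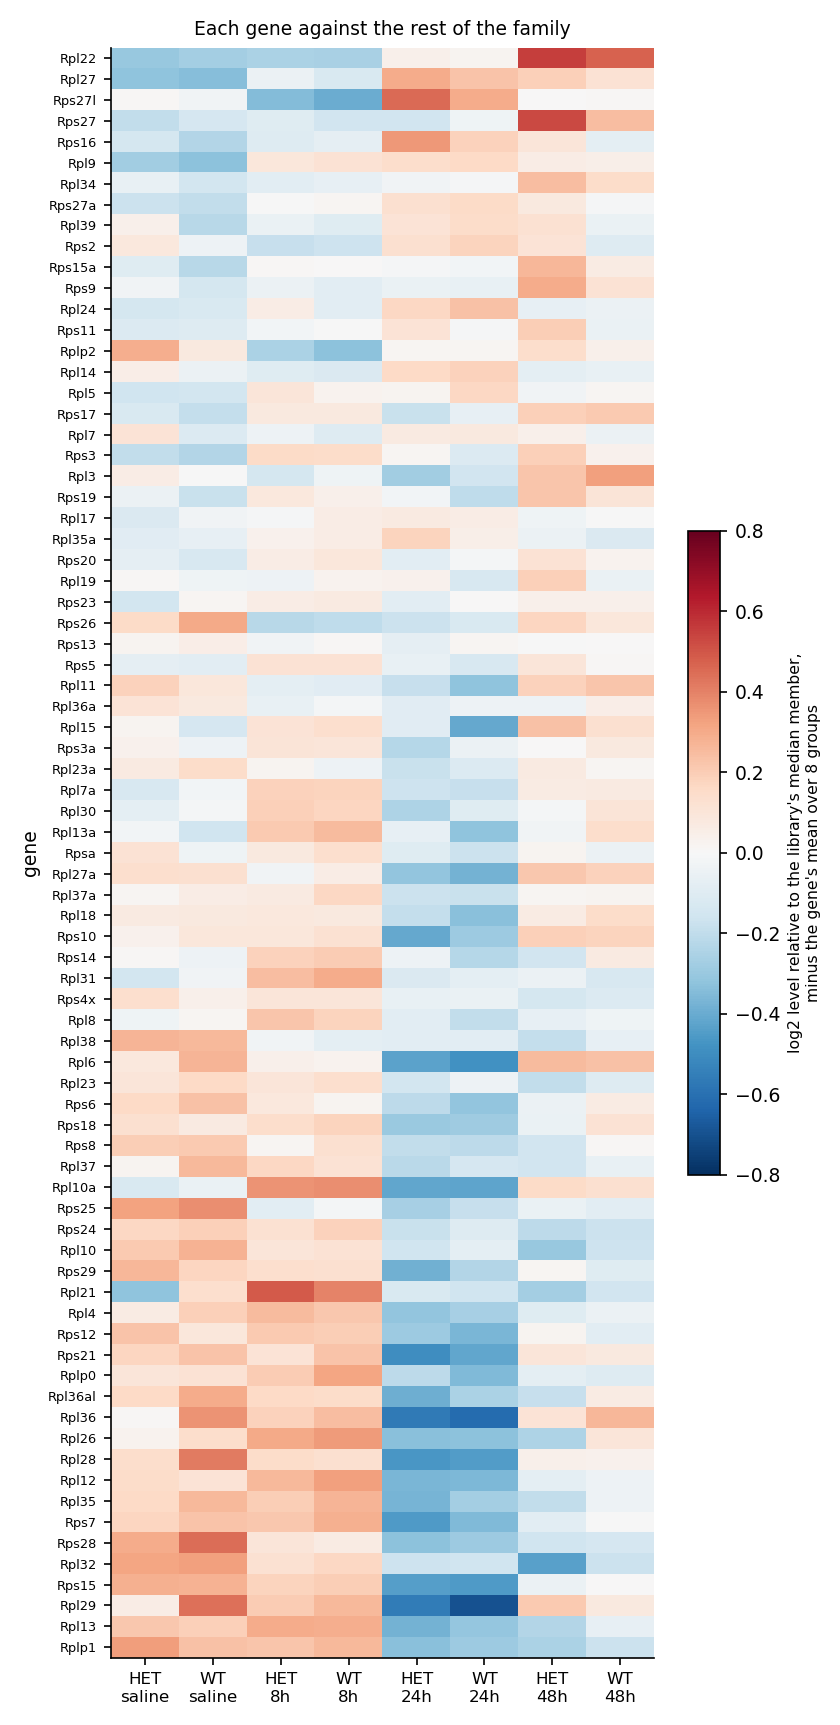
Log2 level of each gene shown relative to its library's median ribosomal protein gene, averaged over the 3 animals of a group and centred on the gene's mean over the 8 groups; red is above and blue below that mean. Rpl22 and Rps27 are red at 48 h in both genotypes, Rpl27, Rpl9 and Rps16 are red at 24 h, and Rpl29, Rpl36 and Rpl28 are blue at 24 h.

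**Figure D5:**
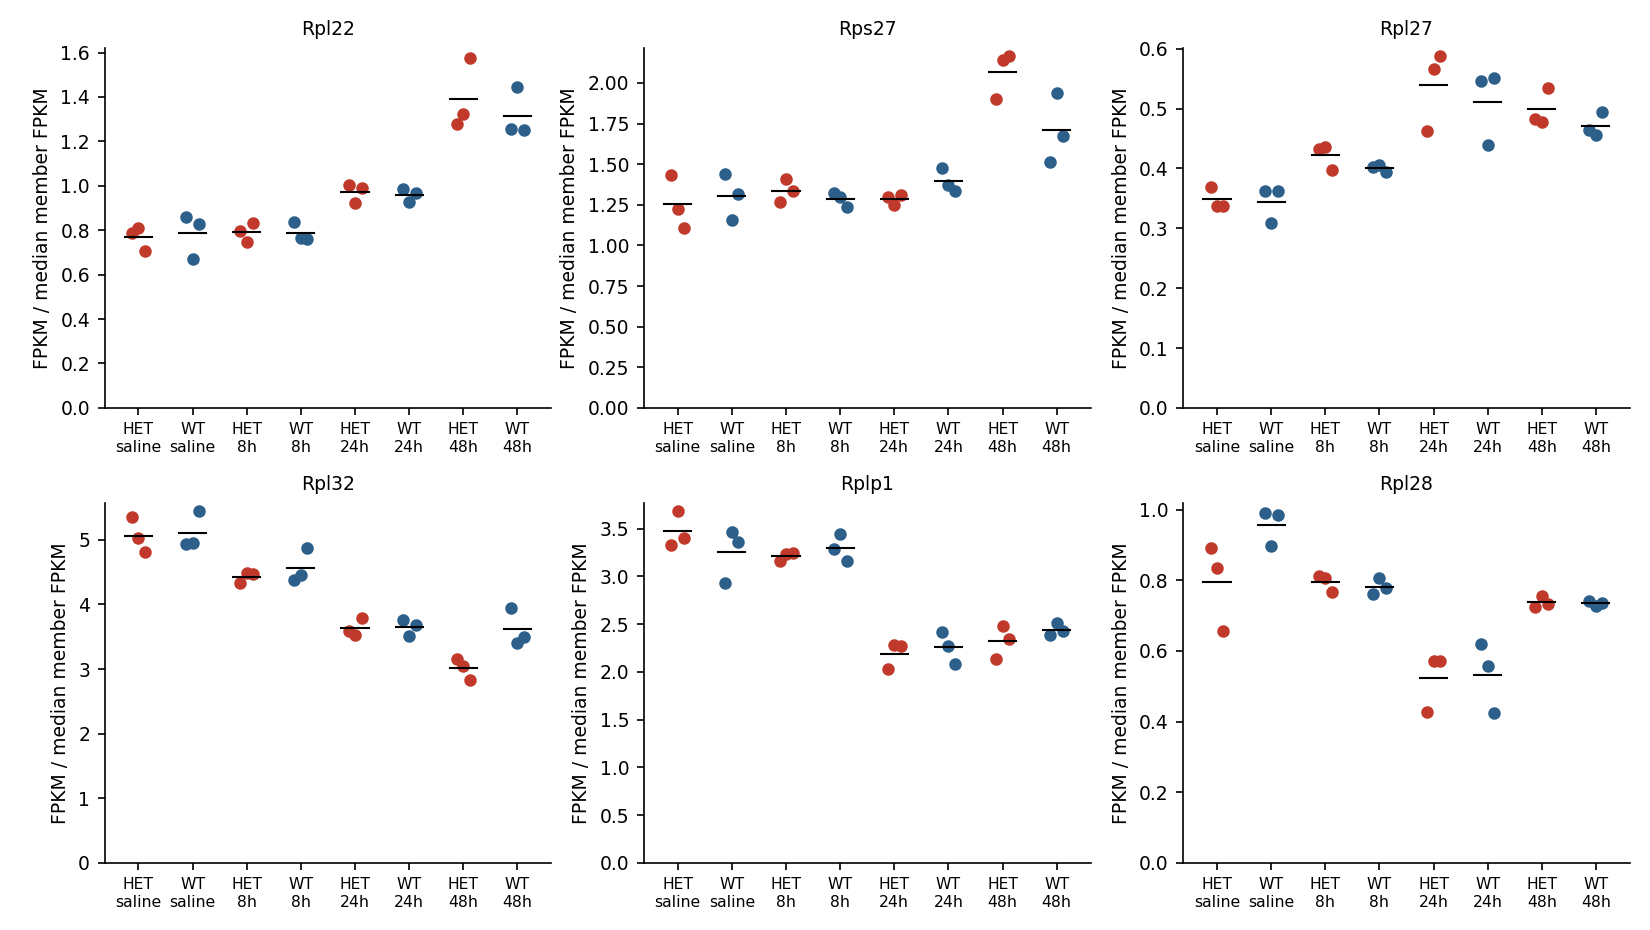
FPKM of 6 genes divided by the FPKM of the library's median ribosomal protein gene, in each of 24 libraries, HET in red and WT in blue, with the group mean as a line; axes start at 0. Rpl22 lies at 1.25 to 1.58 at 48 h, against 0.67 to 0.86 after saline and at 8 h, whereas Rpl32 lies at 2.83 to 3.94 at 48 h, against 4.82 to 5.45 after saline.

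Paralogs of restricted expression were at or near the floor. Rpl10l, a testis gene, was listed at 0 in all 24 libraries, and Rpl3l, a muscle gene, in 19. Rpl39l was listed at 0 in 14 libraries, with 0.170, 0.432 and 0.111 FPKM in HET and 1.48, 0.515 and 0.569 FPKM in WT at 48 h. Its broadly expressed partner Rpl39 had 128, 128 and 93.3 FPKM in HET and 190, 134 and 165 FPKM in WT at 48 h. Rpl36al, described above among the genes lower in HET at 48 h, is a near copy of Rpl36a, which had 217, 188 and 140 FPKM in HET and 369, 237 and 308 FPKM in WT. Reads shared between such copies, or with the many processed pseudogenes of the family, could have been split either way by the counting, so values of near-identical copies are uncertain. Rows named as pseudogenes of the family held 0.202% to 0.292% of its summed FPKM.

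Partners of the family outside the naming rule were followed too. Fau, the ubiquitin-like fusion of the 40S subunit, averaged 106 ± 22.3 FPKM in HET at 24 h, against 246 ± 96.5 FPKM in HET saline, and 104 ± 18.4 FPKM in WT at 24 h, against 209 ± 9.54 FPKM in WT saline (SD, n = 3 each; differences -1.15, adjusted p = 0.000174, and -1.01, adjusted p = 0.000796, by limma). The 40S scaffold Rack1 also fell at 24 h in both genotypes. Rpl22l1, the paralog of Rpl22, fell from 8 h to 48 h in HET, with 61.7 ± 17.7 FPKM at 48 h against 121 ± 8.39 FPKM at 8 h (difference -0.99, adjusted p = 0.00324). In WT it had 101 ± 23.4 FPKM at 48 h against 143 ± 28.8 FPKM at 8 h (difference -0.50, adjusted p = 0.115). These partners were tested in the deposited FPKM only. Relative to the whole total without enzyme and Reg genes, the family's own median from 8 h to 48 h in HET was 0.41. At 24 h against saline it was 0.07 in HET and 0.05 in WT. The falls of the partners may likewise depend on the scaling. The ratio of Rpl22 to Rpl22l1 was 2.29 ± 0.22 in HET and 2.36 ± 0.57 in WT after saline, 1.65 ± 0.034 in HET and 1.56 ± 0.21 in WT at 8 h, 2.99 ± 0.38 in HET and 2.98 ± 0.16 in WT at 24 h, and 4.07 ± 0.66 in HET and 3.66 ± 0.42 in WT at 48 h (SD, n = 3 each).

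Of 14 other mRNAs with a known 5' TOP, 9 fell and 2 rose at 24 h in HET (median -0.57), and 6 fell and 3 rose in WT (median -0.46); relative to the whole total without enzyme and Reg genes these medians were 0.58 and 0.45. At 48 h against saline 9 fell and 1 rose in HET and 1 fell and 1 rose in WT, with medians of -0.76 and -0.22 that were 0.36 and 0.40 under that scaling. Between HET and WT at 48 h, 4 fell, among them the elongation factors Eef2, Eef1g and Eef1b2, and 1 rose, Hnrnpa1 (median -0.45, and 0.05 under that scaling). Of 12 tested regulators of ribosomal protein output, 1 was called lower in HET than in WT at 48 h and none higher. Among all genes 6.37% were called lower and 5.85% higher. The regulator was Larp1, which binds 5' TOP ends. It had 11.4 ± 2.87 FPKM in HET and 21.4 ± 4.30 FPKM in WT (SD, n = 3 each), a difference of -0.86 (adjusted p = 0.00715 by limma). The regulators were tested only in the deposited FPKM with all libraries. The 76 mitochondrial ribosomal protein genes, which serve another ribosome, were counted beside them. At 8 h 43 fell and 5 rose in HET and 36 fell and 7 rose in WT, beside 24.5% and 22.8% of all genes called lower. At 24 h 16 fell and 6 rose in HET and 22 fell and 8 rose in WT, beside 19.8% and 18.7% of all genes lower, and between HET and WT at 48 h 1 fell and none rose, beside 6.37% of all genes lower (median -0.04, and -0.05 to 0.42 over the scalings). At 48 h against saline 29 fell and 3 rose in HET and 18 fell and 2 rose in WT, beside 20.0% and 13.5% of all genes lower. The medians of that comparison ran from -0.35 to 0.64 in HET and from -0.36 to 0.21 in WT over the scalings. The 24 h medians of these genes ran from -0.07 to 1.03 in HET and from -0.15 to 0.68 in WT over the scalings, whereas those at 8 h were below 0 under each.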

How the data were processed

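The authors deposited 1 table of FPKM per gene and library, taken as FPKM from the tools that the submitters' processing notes name (CASAVA 1.8, Bowtie, Cufflinks 2.0.2 and Cuffnorm, with build mm9; their order is not given), so zeros and fine differences may reflect that estimation. Depth is unknown and values have 3 significant digits. All 24 libraries of the 8 groups were fitted together with limma 3.58.1 in R 4.3.3 on log2(FPKM + 1), with 1 mean per group, a trended robust prior and Benjamini-Hochberg adjustment over 12849 to 12867 genes per comparison; the script was tested on simulated data. A group listed at 0 in all 3 animals was taken as missing where another group had 100 FPKM or more throughout (22 genes, none of the family). Tests are two-sided. Replicate numbers pair no animals. Ribosomal protein genes, gene lists and tests were chosen with earlier results of these data known. Genes named are up to 5 per direction in each comparison, up to 4 per direction relative to the family, and those with set roles, extreme levels or extreme variability; others named were chosen after their values were seen. Alternatives were other scalings, a pseudocount of 0.1, no filter, zeros kept, a spread from the compared libraries only, the family mean for its median, and leaving out each library; scaling to the protein-coding total was added after the data were seen. Summaries and figures used Python 3.11.15 with matplotlib 3.10.9, scipy 1.17.1, numpy 2.4.6 and pandas 2.3.3. Values of 1 gene of the family and 1 partner are not reported here.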

Additional observations from a re-analysis of the deposited data

How the results depend on the processing

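No count of called genes changed by more than 1.5 times with a pseudocount of 0.1 or with zeros kept. Other settings moved counts as follows, against 27 genes called in HET against WT at 48 h, 56 and 16 at 8 h, 71 and 59 at 24 h and 76 and 21 at 48 h against saline in HET and in WT, and 43 and 1 at 48 h against 8 h. With the whole FPKM total without enzyme and Reg genes as scale, HET against WT at 48 h gave 0, 8 h in WT gave 29, 24 h gave 10 in HET, all higher, and 17 in WT (11 higher, 6 lower), 48 h against saline gave 10 in HET (2 higher, 8 lower) and 4 in WT, all higher, and 48 h against 8 h gave 33 in HET and 51 in WT, all higher. With the protein-coding total, chosen after the data were seen, HET against WT at 48 h gave 52, 8 h in WT 67, 48 h against saline in WT 8 (2 higher, 6 lower), and 48 h against 8 h gave 20 in HET (17 higher, 3 lower) and 64 in WT, all higher. Median ratios gave 41 in HET against WT at 48 h, 39 at 8 h in WT and 5 at 48 h against 8 h in WT, all higher. No filter on low values gave 13 in HET against WT at 48 h and 2 at 48 h against 8 h in WT. With the spread taken from the compared libraries only, HET against WT at 48 h gave 0, 8 h gave 24 in HET and 29 in WT, and 48 h against saline in WT gave 8. Scaling moved the common level of the libraries by construction; for the other changes the cause was not tested.

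Without single libraries the counts ran from 0 to 56 in HET against WT at 48 h, 26 to 66 in HET and 6 to 20 in WT at 8 h, 62 to 74 in HET and 48 to 65 in WT at 24 h, 73 to 77 in HET and 4 to 26 in WT at 48 h against saline, and 14 to 49 in HET and 1 to 1 in WT at 48 h against 8 h. The other genotype comparisons and the tests of difference between genotypes stayed at 0. Counts of departures from the block (2 between HET and WT at 48 h, 13 and 12 at 8 h, 43 and 43 at 24 h, 30 and 11 at 48 h against saline, 23 and 13 at 48 h against 8 h, in HET and in WT) ran from 0 to 3, 7 to 10 and 5 to 10, 33 to 41 and 34 to 40, 21 to 29 and 4 to 10, and 13 to 22 and 7 to 13. With the spread taken from the compared libraries only they were 0 between HET and WT at 48 h and, in HET, 7 at 8 h, 22 at 24 h, 7 at 48 h against saline and 4 at 48 h against 8 h. With no filter they were 7 in WT at 8 h, 7 at 48 h against saline and 7 at 48 h against 8 h. With the family mean subtracted they were 17 in WT at 48 h against saline. Of 107 named results 56 passed under every setting fitted to them and 78 without any single library, and 0 changed sign past the threshold. Departures from the block were not fitted under the other scalings. The 41 named differences were, and 20 of them passed under the whole total without enzyme and Reg genes. Under the protein-coding total 39 passed, and under median ratios all 41. No paired analysis was possible because the labels pair no animals.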

Other observations

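Rps4l, a near copy of Rps4x outside the naming rule, had 8.00, 9.32 and 8.74 FPKM in HET at 8 h and 6.98, 8.51 and 9.49 FPKM in WT at 8 h, against 2.07 to 4.32 FPKM in the 6 saline libraries, so it lay above saline in every animal at a time when 56 genes of the family fell in HET and 16 in WT. Across the 78 genes, the departure from the block at 24 h against saline had a Spearman correlation with coding GC content of -0.42 in HET and -0.45 in WT, given as a description over genes of the same libraries; over all genes it was -0.21 and -0.19. In the other comparisons it was between -0.21 and 0.29 over the 78 genes. The correlation with coding length was between -0.06 and 0.25 over the 78 genes in all comparisons. Over all genes it was between -0.22 and 0.28, with 0.28 in HET and 0.20 in WT at 8 h against saline.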
